A study of Mus musculus with 107 samples.

Results

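The 53 genes described here drive or restrain the cell division cycle, and they were taken by name for their textbook roles. They are 53 of the 27179 genes in the count tables, and each was found there by its mouse Entrez identifier. By role they fall into 13 S phase genes, 22 G2/M genes, 10 genes of G1 and of the G1/S transition, 2 pocket proteins and 6 inhibitors. The S phase genes are Mcm2 to Mcm7, Cdc6, Cdt1, Gmnn, Pcna, Rrm1, Rrm2 and Tyms. The G2/M genes include Mki67, Top2a, Cdk1, the cyclins Ccna2, Ccnb1 and Ccnb2, the mitotic kinases Aurka, Aurkb, Plk1, Bub1, Bub1b and Ttk, and kinetochore and spindle genes such as Cenpa, Cenpe, Cenpf and Kif11. The G1 genes are the D cyclins Ccnd1, Ccnd2 and Ccnd3, the E cyclins Ccne1 and Ccne2, the kinases Cdk2, Cdk4 and Cdk6, the phosphatase Cdc25a and the transcription factor E2f1. The pocket proteins are Rb1 and Rbl1, and the inhibitors are Cdkn1a, Cdkn1b and Cdkn1c of the Cip/Kip family and Cdkn2a, Cdkn2b and Cdkn2c of the INK4 family.

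RNA bound to ribosomes tagged with HA on Rpl22 (RiboTag) was sequenced in 107 libraries of 23 groups, all labelled C57BL/6 and RiboTag +. All cultured and grafted cells descended from 1 female embryonic stem cell (ESC) line, made from blastocysts of RiboTag crossed with Sox2-cre mice, so every cell in a dish carries the tag. Neural progenitor cells (NPC) of the first derivation were grown in EGF and FGF at 100 ng/ml each and sampled at passages 5, 15 and 30 (NPC P5, NPC P15 and NPC P30, 4 libraries each). Derivations 2 and 3 were sampled at passage 15, as NPC P15 D2 (6 libraries) and NPC P15 D3 (4 libraries). In SPONT (spontaneous differentiation, n = 4) EGF and FGF were lowered from 100 to 1 ng/ml for 4 days, and to that medium were added ciliary neurotrophic factor (CNTF, 100 ng/ml), IGF-1 (100 ng/ml), fetal bovine serum (FBS) at 1, 5, 10 or 20%, or CNTF with 5% FBS (n = 4 each). NPC were also passed through glass pipettes in medium (NPC media), in a hydrogel (NPC DCH) or after 4 h in that hydrogel (NPC DCH 4 h, n = 5 each). Grafts held tagged NPC in untagged hosts, young adult mice of 8 weeks to 4 months and both sexes, with the cells placed 2 days after a crush of the spinal cord at T10: NPC SCI 14 d, NPC SCI 5 d and NPC dSCI (a double crush, 14 d), beside NPC uninjured (14 d) in cord without a crush (n = 5 each). Host astrocytes were tagged through the 73.12 Gfap-Cre line and taken from healthy cord (Astro, n = 9) and 14 days after a crush (Astro SCI, n = 5). In these tissues 4 mm of cord was homogenized before the HA pull-down, so the tag, not dissection, selects the cells. Which NPC derivation was differentiated or grafted is not given in the sources used here. The paper counts the 5 d of the grafts from grafting, and the 14 d from grafting in one place and from the injury in another.

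Counts per library summed to 30473157 to 147764968 in the 96 paired-read libraries and to 12286240 to 18085106 in the 11 single-read libraries, which are all of NPC P15 D2 and NPC SCI 5 d. CPM are counts scaled to these totals, and at such depths a gene at 1 CPM rests on 12 or more reads. Fold changes (log2FC) also carry a TMM correction for composition, so they can differ from a ratio of CPM, and their errors are standard errors (SE). A gene is called where the adjusted p of edgeR's quasi-likelihood test, over all genes tested, is below 0.01. The labels do not say what separates the replicates, while the paper describes independent biological replicates of cultures and separate mice for grafts, and the p-values measure the spread between these libraries. The 6 ESC markers summed to 2588 to 2634 CPM in ESC and to 16.8 to 22.8 CPM in NPC P15, and the 7 astrocyte markers to 35024 to 42514 CPM in Astro, so these groups bear the markers of their labels. In grafts and injured hosts the 10 myeloid markers were also present, at 572 to 1921 CPM in NPC SCI 14 d against 17.7 to 36.6 CPM in Astro. Library 4 of NPC SCI 5 d stood apart with 16631 myeloid CPM, where the lowest library of that group had 719 CPM.

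In G1, mitogens raise D cyclins, which act with Cdk4 and Cdk6 to phosphorylate Rb1 and release E2F transcription factors, and these switch on the enzymes and licensing factors of S phase. Later the DREAM and B-Myb-MuvB complexes govern G2/M genes through CHR promoter elements, and these promoters often hold CCAAT elements as well. INK4 proteins block Cdk4 and Cdk6, while Cip/Kip proteins bind several cyclin and kinase pairs, and Cdkn1a is a target of p53. Neural progenitors in mitogens divide continuously, astrocytes of the healthy adult cord rarely divide, and reactive astrocytes can re-enter the cycle.

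The promoters of S phase and G2/M genes differ in the words they hold. Below are 5 examples, most of them of genes that recur later, with Cdk4 as a G1 gene that holds none of these words. RefSeq windows from 250 bases before to 50 after the start (GRCm38.p6, the build of the counts being mm10) were found for 42 of the 53 genes and for 27025 genes in all. The words searched on both strands were TTTCCCGC, TTTCGCGC, TTTGCCGC and TTTGGCGC for E2F, TTTGAA for the CHR, and CCAAT. Each window is given 5′ to 3′ on the gene's strand, with every match in capitals.
Mcm5, chr8:75109259-75109558, plus strand: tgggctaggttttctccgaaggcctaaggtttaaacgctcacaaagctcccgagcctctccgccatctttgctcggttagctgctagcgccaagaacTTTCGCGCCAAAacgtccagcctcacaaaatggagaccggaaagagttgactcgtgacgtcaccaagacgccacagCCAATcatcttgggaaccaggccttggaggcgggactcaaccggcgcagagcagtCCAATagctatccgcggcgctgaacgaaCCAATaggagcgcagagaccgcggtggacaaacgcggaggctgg
Cdc6, chr11:98907901-98908200, plus strand: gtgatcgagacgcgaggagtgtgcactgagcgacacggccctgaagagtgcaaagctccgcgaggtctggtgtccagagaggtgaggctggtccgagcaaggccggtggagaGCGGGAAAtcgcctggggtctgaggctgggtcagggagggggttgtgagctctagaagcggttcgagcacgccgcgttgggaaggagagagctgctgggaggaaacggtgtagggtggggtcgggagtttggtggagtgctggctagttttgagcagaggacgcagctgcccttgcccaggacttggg
Ccnb2, chr9:70421505-70421804, minus strand: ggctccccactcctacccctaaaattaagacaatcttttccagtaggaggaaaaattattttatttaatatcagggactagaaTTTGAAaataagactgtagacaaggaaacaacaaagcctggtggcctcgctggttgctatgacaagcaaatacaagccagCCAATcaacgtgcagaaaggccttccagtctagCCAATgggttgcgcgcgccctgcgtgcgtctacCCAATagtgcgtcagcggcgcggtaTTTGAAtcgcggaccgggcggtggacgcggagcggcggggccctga
Top2a, chr11:99024140-99024439, minus strand: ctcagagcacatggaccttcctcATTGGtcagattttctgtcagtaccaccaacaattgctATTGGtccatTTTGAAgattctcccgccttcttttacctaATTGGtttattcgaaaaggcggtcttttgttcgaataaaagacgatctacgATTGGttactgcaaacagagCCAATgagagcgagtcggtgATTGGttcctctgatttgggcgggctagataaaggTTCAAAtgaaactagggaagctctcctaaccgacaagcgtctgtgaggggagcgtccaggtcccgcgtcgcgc
Cdk1, chr10:69352863-69353162, minus strand: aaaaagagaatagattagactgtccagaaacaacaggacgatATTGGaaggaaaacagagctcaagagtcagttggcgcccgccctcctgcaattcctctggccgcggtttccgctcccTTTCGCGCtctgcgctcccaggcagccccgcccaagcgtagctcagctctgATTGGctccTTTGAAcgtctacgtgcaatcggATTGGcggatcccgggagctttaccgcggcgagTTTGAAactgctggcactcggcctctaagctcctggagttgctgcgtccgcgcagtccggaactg
Cdk4, chr10:127063285-127063584, plus strand: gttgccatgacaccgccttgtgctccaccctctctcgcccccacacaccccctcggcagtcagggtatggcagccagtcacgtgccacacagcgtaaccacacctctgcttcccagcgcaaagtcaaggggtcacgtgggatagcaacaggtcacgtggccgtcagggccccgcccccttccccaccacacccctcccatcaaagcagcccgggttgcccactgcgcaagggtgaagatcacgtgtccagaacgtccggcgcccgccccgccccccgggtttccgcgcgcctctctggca

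In Mcm5, which encodes a subunit of the replicative helicase, the capital block TTTCGCGCCAAA is made of overlapping E2F words on both strands. In the mitotic cyclin Ccnb2 and the DNA decatenating enzyme Top2a, 2 CHR words stand beside 3 and 6 CCAAT words. Cdk1, the kinase of mitotic entry, held words of all kinds. An E2F word stood in 6 of 11 S phase windows (54.5%), in 1 of 18 G2/M windows (5.56%) and in 2.6% of all windows. CHR and CCAAT stood together in 13 of 18 G2/M windows (72.2%), in 1 of 11 S phase windows (9.09%) and in 7.97% of all windows. A match is a run of letters and was not tested for binding.

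Across the 23 groups, the levels of S phase and G2/M genes were highest in ESC and NPC kept in mitogens, lower in every differentiated culture, and lowest in healthy host astrocytes. By group mean, 23 of the 53 genes were highest in ESC and 40 were lowest in Astro. The same count was not made over all genes, so these numbers only describe the 53. The class level used here is the mean over a class of log2(CPM + 1) in each library. For S phase it was 8.21 ± 0.026 (SD, n = 4) in ESC, 7.35 in NPC P15, 5.22 in SPONT, 4.38 in 20% FBS and 2.97 in Astro. For G2/M it was 7.45 in ESC, 6.63 in NPC P15, 4.03 in SPONT, 3.10 in 20% FBS and 0.86 in Astro. The inhibitors did not follow that order, at 3.79 in ESC, 5.07 in NPC P15, 5.59 in SPONT, 5.86 in 20% FBS, 3.51 in Astro and 5.70 in NPC SCI 5 d. In bulk libraries such as these, fewer dividing cells and less of a transcript in each cell cannot be told apart.

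**Figure D1:**
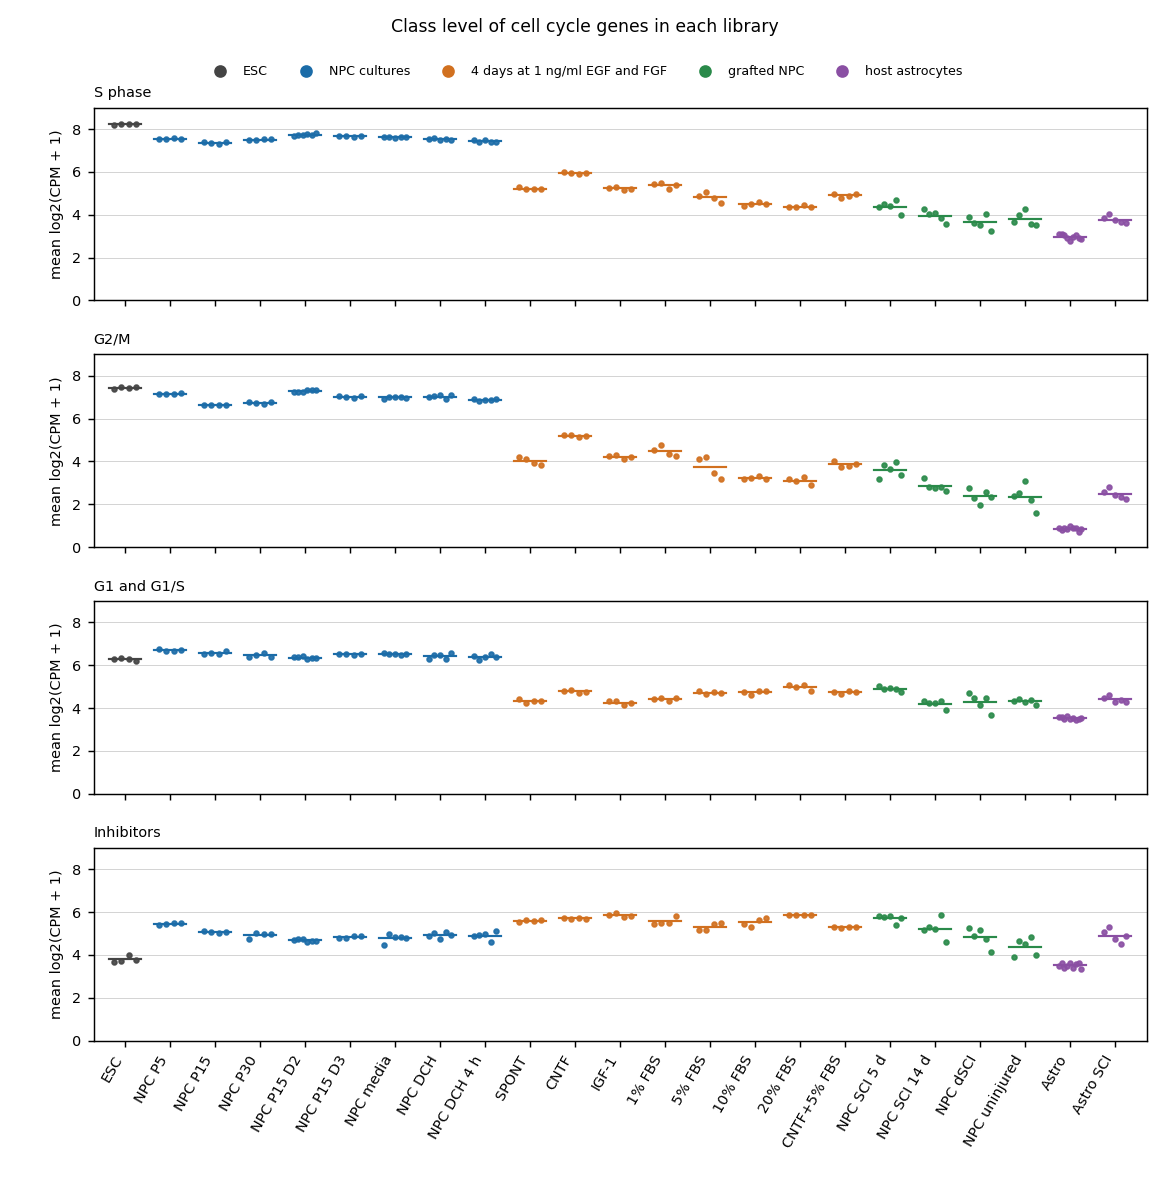
Class levels (mean over a class of log2(CPM + 1), vertical axis) of each library (points) with the group mean (bar), in a panel each for S phase, G2/M, G1 and inhibitor genes and for the 23 groups along the horizontal axis. S phase and G2/M levels drop from NPC P15 (7.35 and 6.63) to SPONT (5.22 and 4.03) and are lowest in Astro (2.97 and 0.86), while inhibitor levels are lowest in Astro (3.51) and ESC (3.79).

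NPC differed from the stem cells most in G1 genes and inhibitors, with Ccnd1, Ccnd2 and Cdkn1a far higher and Ccne1, Ccnd3 and Cdkn1c lower, while S phase and G2/M genes were mostly somewhat lower. Of the 53 genes, 12 were higher and 38 lower in NPC P15 than in ESC, where 67.2% of all genes tested were called (32.2% higher, 34.9% lower). The S phase genes were lower in 12 of 13 cases (median log2FC −1.12), the G2/M genes in 19 of 22 (−0.91), and the inhibitors were higher in 4 of 6 (1.72), beside a median of −0.10 over all genes. Ccnd2, the D cyclin known for its role in neural progenitors, was at 9.99, 9.66, 8.18 and 5.83 CPM in ESC and at 1783, 1734, 1741 and 1751 CPM in NPC P15. The groups do not come near each other, and the log2FC was 7.62 ± 0.16 (SE, adjusted p = 6.3e-12). Ccnd1 rose from 147 to 153 CPM to 2655 to 2739 CPM (log2FC 4.07 ± 0.03, adjusted p = 7.2e-15).

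Other cyclins moved the opposite way. Ccne1, the E cyclin that with Cdk2 drives entry into S phase, was at 371, 351, 375 and 380 CPM in ESC and at 23.4, 29.7, 24.5 and 27 CPM in NPC P15, with no overlap (log2FC −3.91 ± 0.08, adjusted p = 4.7e-12). Ccnd3 fell by 2.46 and Cdk6 by 2.98 on the log2 scale, whereas Cdk4 fell by only 0.35. Per kilobase of exon (FPKM), Ccnd3 made up 60.2% of the summed D cyclins in ESC and Ccnd1 made up 74.5 ± 0.4% (SD, n = 4) in NPC P15. Ccnd2 went from 1.1% to 24.3% of the same sum.

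Among inhibitors, Cdkn1a, which encodes p21, was at 35.1 to 42.8 CPM in the 4 ESC libraries and at 499, 475, 538 and 498 CPM in NPC P15. All NPC libraries lay above all ESC libraries (log2FC 3.61 ± 0.07, adjusted p = 5.6e-12). Cdkn2c rose from 1.32 to 31.4 CPM (log2FC 4.50 ± 0.37, adjusted p = 6.1e-07), and Cdkn1b rose by 1.73, Cdkn2a by 1.71 and the pocket proteins Rb1 and Rbl1 by 2.13 and 0.88. Cdkn1c, which encodes p57, was the inhibitor that fell, from 46.3 to 5.86 CPM (log2FC −3.06 ± 0.23, adjusted p = 2.1e-07). Cdkn2b at −0.80 (adjusted p = 0.038) and E2f1 at −0.20 (adjusted p = 0.13) were not called. Of the mitotic genes, Ccnb1 fell by 1.65, Top2a by 0.92 and Cdk1 by 0.91, and Mki67, a marker of cycling cells, rose by 0.56 (adjusted p = 0.0027), a call lost when 1 library was left out. The small changes turned with the NPC group used: against ESC, Cdk4 was at 0.30 in NPC P5 and 0.45 in D3, Top2a at 0.21 in D2, and Cdk1 and Pcna at 0.11 and 0.09 in D3.

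Further cell cycle genes outside the 53 moved likewise. Of 39 other S phase genes 2 were higher and 28 lower, of 39 other G2/M genes 8 and 26, and of 20 p53 target genes 11 and 6. Genes with exons under 2 kb had a median log2FC of −0.74 in this comparison and those over 8 kb one of 0.52. Mki67 spans 10061 bases of exon, and the part of length in its difference was not tested.

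**Figure D2:**
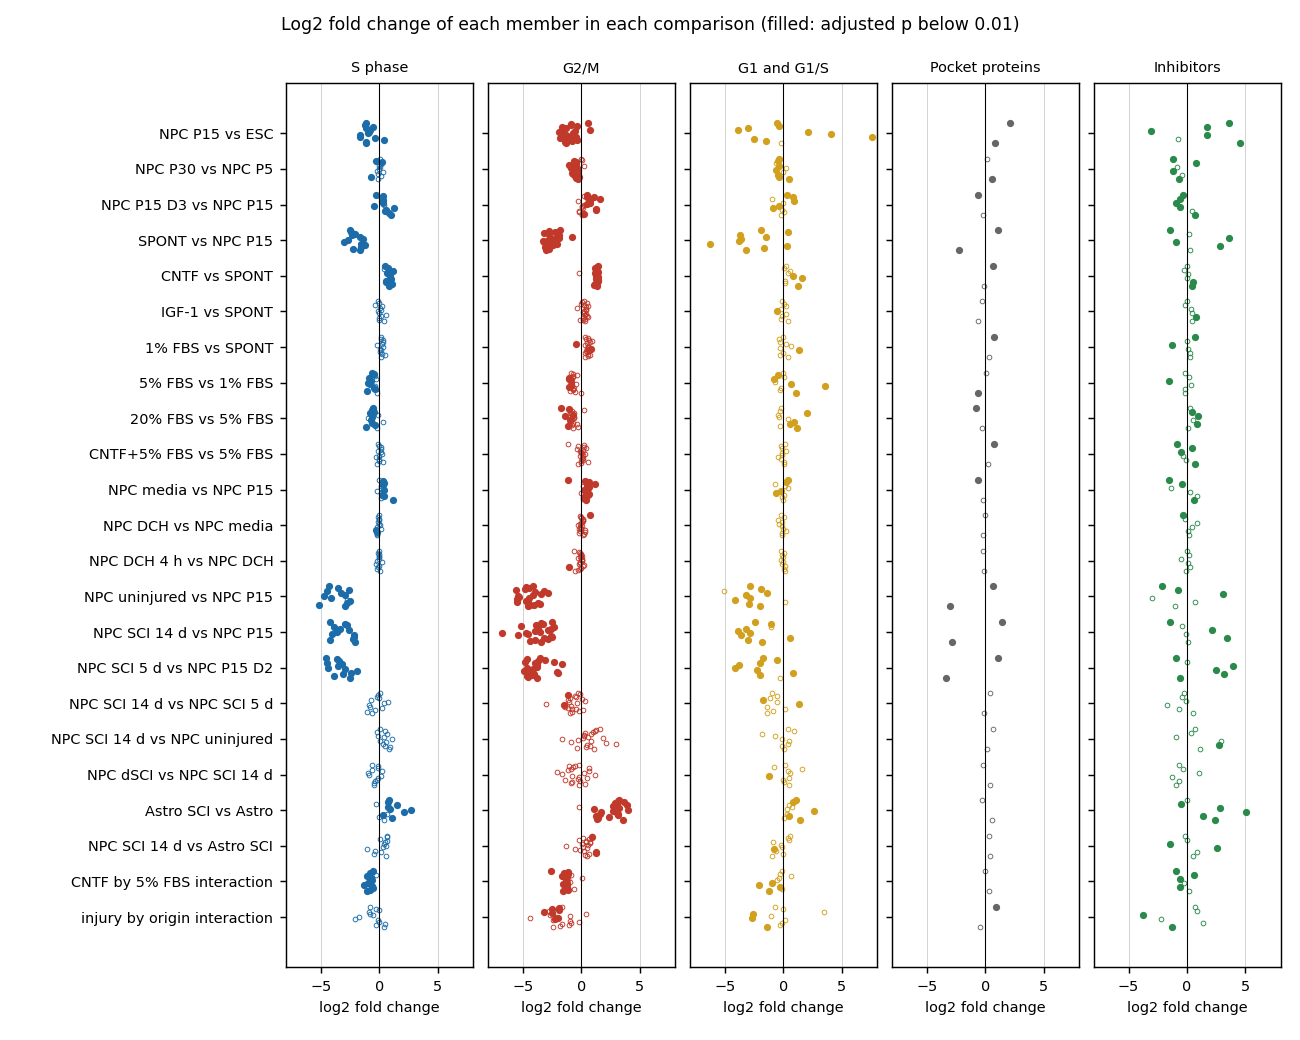
Log2 fold change (horizontal axis) of each of the 53 genes in each comparison (rows), in a panel for each role. Each point is a gene, filled where the adjusted p was below 0.01, and points are spread vertically only to be seen. S phase and G2/M genes lie left of 0 in SPONT and in grafts against NPC (45 of 53 genes lower in NPC SCI 14 d) and G2/M genes lie right of 0 in Astro SCI against Astro (21 of 22 higher).

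Between passage 5 and passage 30 of the first derivation the mitotic genes fell modestly while the S phase genes barely moved, but neither class followed passage. NPC P15 stood below both, with G2/M levels of 6.62 to 6.66 against 7.13 to 7.20 in NPC P5 and 6.70 to 6.78 in NPC P30. Its S phase levels were 7.30 to 7.38, against 7.53 to 7.56 in NPC P5 and 7.49 to 7.53 in NPC P30. Of the 53, 4 were higher and 30 lower in NPC P30 than in NPC P5 (35.5% of all genes called, 17.5% higher and 18.1% lower). With all 23 groups in 1 fit, which share 1 estimate of the spread, 7 were called. The fall took in 19 of 22 G2/M genes (median −0.49) but 2 of 13 S phase genes (−0.02), and 28 of 39 other G2/M genes. Cdc20, which activates the anaphase-promoting complex, went from 515, 511, 523 and 528 CPM to 250, 269, 264 and 244 CPM, without overlap (log2FC −1.04). Cdkn1a fell from 306, 313, 334 and 306 CPM to 136, 147, 131 and 150 CPM (log2FC −1.18 ± 0.05, adjusted p = 1.6e-13). The Cdkn1a level did not follow passage either, since NPC P15 of the same derivation stood above both at 475 to 538 CPM. Cdkn2a fell by 1.16, Cdkn2c by 0.65 and Ccnd1 by 0.61, and Cdkn1b, E2f1 and Rbl1 rose by 0.75, 0.53 and 0.61, the call of E2f1 being lost without NPC P30 library 3 (0.42) or NPC P5 library 3 (0.45). Ccnd2 (−0.01, adjusted p = 0.83) and Mki67 (−0.05, adjusted p = 0.82) were not called.

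Derivation 3 carried more of the mitotic and S phase transcripts than derivation 1 at the same passage. Of the 53, 25 were higher and 9 lower (48% of all genes called, 23.6% higher and 24.5% lower, and 15 of the 53 called with all groups in 1 fit), with 12 of 22 G2/M genes and 9 of 13 S phase genes higher (medians 0.34 and 0.33). Cdk1 was at 248, 266, 316 and 313 CPM in D3 and at 132, 137, 142 and 152 CPM in NPC P15 (log2FC 1.07). Ccnb2 rose by 1.57, Birc5, a subunit of the chromosomal passenger complex, by 1.27, and Gmnn, which blocks relicensing of origins, by 1.24. Cdk4 rose by 0.87 and Ccne1 by 0.93, and Ccnd2 (−0.90), Cdkn1c (−0.92), Rb1 (−0.61), Cdkn1b (−0.59), Cdkn2a (−0.58) and Cdkn1a (−0.36) fell, with the calls of Cdkn1c and Cdkn2a lost when some 1 library was left out. Short transcripts were generally higher in D3 (median 0.54 under 2 kb, −0.34 over 8 kb), and the part of length was not tested. In D2 the Mki67 level divided the libraries, with 231, 203 and 211 CPM in libraries 1 to 3 and 388, 485 and 408 CPM in libraries 4 to 6.

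After 4 days in lowered mitogens, nearly all genes of DNA replication and mitosis fell, and Ccnd1 and Ccnd2 fell further still. In SPONT, 46 of the 53 genes were lower and 5 higher than in NPC P15 (57.2% of all genes called, 29.8% higher and 27.4% lower). All 13 S phase genes (median −2.13), all 22 G2/M genes (−2.74) and 8 of 10 G1 genes (−2.54) fell, beside a median of 0.08 over all genes. Ccnd2 was at 26.4, 15.2, 18.4 and 24 CPM in SPONT, where NPC P15 had 1734 CPM or more (log2FC −6.26 ± 0.17, adjusted p = 2.5e-10). Ccnd1 was at 150.1 to 189 CPM (log2FC −3.82 ± 0.08, adjusted p = 3.7e-11).

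E2f1, also of the G1 genes, went from 31.2, 25.0, 28.3 and 31.3 CPM to 3.05, 2.93, 2.8 and 2.92 CPM, with no overlap (log2FC −3.18 ± 0.13, adjusted p = 5.7e-09). Mcm5, with its E2F words, fell from 256, 264, 260 and 281 CPM to 51.4, 49.8, 45.4 and 45.7 CPM (log2FC −2.33). Mcm2 fell by 2.55 and Rrm2, a subunit of ribonucleotide reductase, by 2.26, while Pcna, the sliding clamp that also serves DNA repair, fell by 1.24. Of the mitotic genes Ccnb1 fell by 2.81, Top2a by 2.73, Cdk1 by 2.27 and Mki67 by 1.84. Among genes outside the 53 whose promoter holds an E2F word, 40.7% of 511 were lower in SPONT, against 28% of 11237 genes with a window. Of those with CHR and CCAAT, 32.8% of 640 were lower. Whether E2f1 or these words had a part in the falls was not tested. Other lists fell too, with 37 of 39 other S phase genes, 36 of 39 other G2/M genes and 14 of 20 p53 targets lower.

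A few regulators went up. Cdkn1c rose from 7.57, 7.43, 3.61 and 4.83 CPM in NPC P15 to 74.1, 69.7, 58.0 and 56.6 CPM in SPONT, all above all (log2FC 3.58 ± 0.24, adjusted p = 1.9e-07). Cdkn2b, which encodes p15, rose from 2.47 to 3.42 CPM to 18.0 to 23.6 CPM (log2FC 2.83 ± 0.17, adjusted p = 8.2e-08). It spans 1390 bases of exon. Genes under 2 kb had a median of 0.46 in this comparison and those over 8 kb one of −0.25, and the part of length was not tested. Rb1 rose by 1.08. Cdkn1a (−1.44) and Cdkn2a (−0.98) fell, and Cdkn1b at 0.14 (adjusted p = 0.23) and Cdkn2c at 0.26 (adjusted p = 0.048) were not called. The catalytic partner Cdk4 stayed abundant at 545 to 638 CPM (log2FC 0.37, called), with Ccnd3 at 0.33, a call lost when 1 library was left out. These small rises and the fall of Cdkn1a turned with the NPC reference: against P5, Cdk4 was at −0.31, Cdkn2c at −0.60 and Ccnd3 at −0.0033, against D3, Cdk4 was at −0.52 and Cdkn2c at −0.46, and against P30, Cdkn1a was at 0.43. The 7 astrocyte markers summed to 8071 to 11953 CPM in SPONT and to 812 to 848 CPM in NPC P15, and the part of this change of cell type in the result was not tested.

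**Figure D3:**
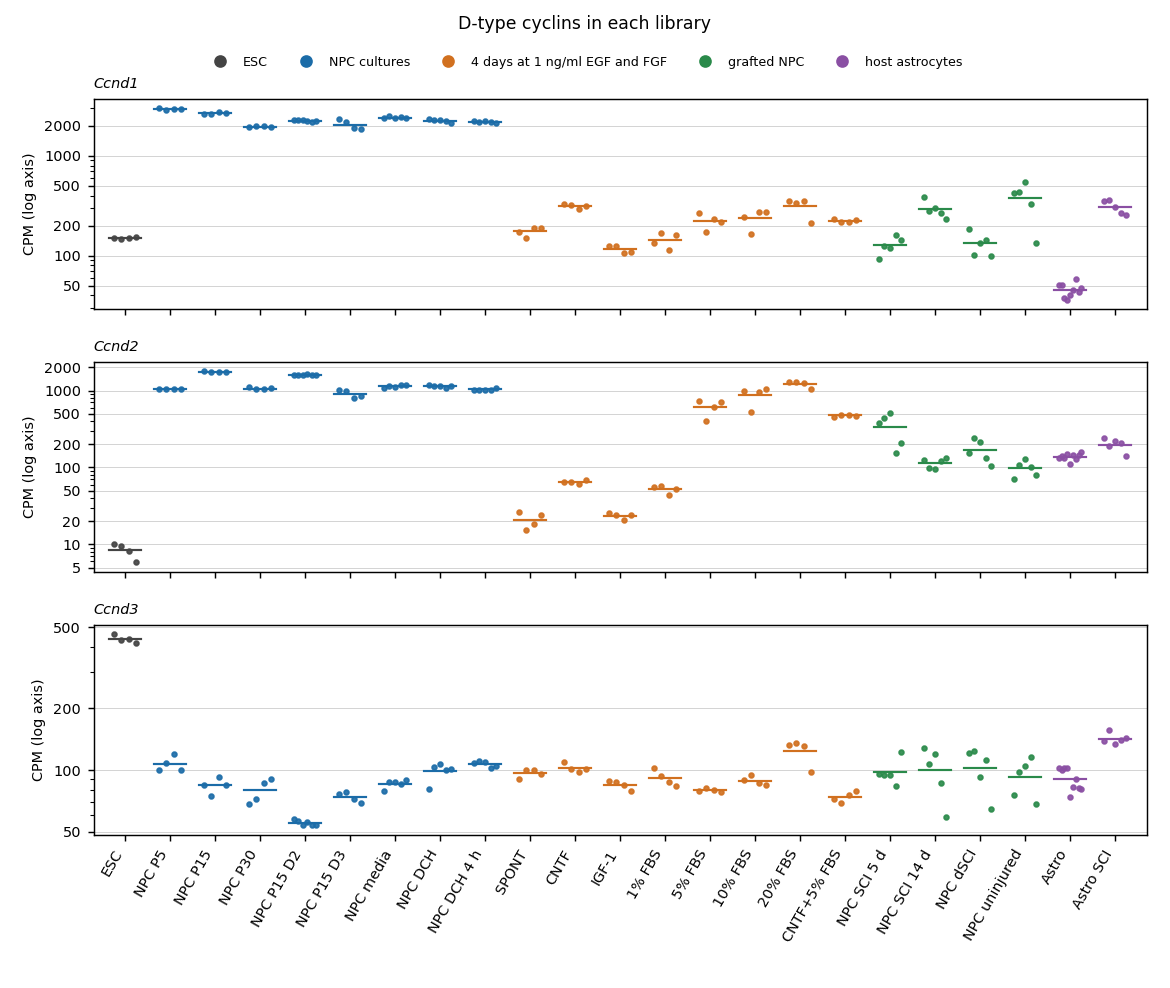
Levels of Ccnd1, Ccnd2 and Ccnd3 (CPM, log axis) in each library (points) with the group mean (bar), by group. Ccnd1 and Ccnd2 fall from 2693 and 1753 CPM in NPC P15 to 174.5 and 21 CPM in SPONT, and Ccnd2 is higher again with serum, while Ccnd3 stands apart mainly in ESC (437 CPM).

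Genes of all phases were higher when CNTF was present during withdrawal. Against SPONT, 39 of 52 genes tested were called, all of them higher (19.9% of all genes called, 10.8% higher and 9.15% lower, and 24 of the 52 called with all groups in 1 fit), including 12 of 13 S phase genes (median 0.78) and 21 of 22 G2/M genes (1.31). Mki67 was at 97.7, 93.9, 100.2 and 103 CPM with CNTF and at 30.5 to 49.3 CPM in SPONT, without overlap (log2FC 1.42 ± 0.14, adjusted p = 3.3e-05). Ccnd2 was at 64.6, 64.2, 61.0 and 67.9 CPM (log2FC 1.64 ± 0.15, adjusted p = 1.4e-05), and Ccnd1 at 292 to 329 CPM (0.87). Ccnb1, Top2a and Cdk1 rose by 1.27, 1.36 and 1.18, E2f1 by 1.27, Mcm5 by 1.19 and Rrm2 by 1.06. CNTF left the class levels well under those of NPC P15, at 5.95 against 7.35 for S phase and 5.19 against 6.63 for G2/M. The inhibitors moved less: Cdkn1c (0.07, adjusted p = 0.62) and Cdkn1a (0.02, adjusted p = 0.87) were not called, and the rises of Cdkn2b (0.54), Cdkn2c (0.42) and Rb1 (0.69) were each lost when 1 library was left out. Other G2/M genes were higher in 30 of 39 cases and other S phase genes in 22 of 39. The astrocyte markers summed to 22466 to 23524 CPM with CNTF against 8071 to 11953 CPM in SPONT, and the 4 neuron markers to 251 to 262 CPM against 98.8 to 118 CPM, and their part in these differences was not tested. Of genes outside the 53 with CHR and CCAAT in their promoter, 15.7% were higher, against 10.6% of all with a window.

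IGF-1 gave 2 calls among 52 genes tested, 1 in each direction (6.55% of all genes called, 2.80% higher and 3.75% lower). Cdkn2b was at 33.4, 34.6, 30.1 and 32.9 CPM, above its SPONT levels (log2FC 0.74 ± 0.10, adjusted p = 0.0038), and Ccnd1 was at 126, 125, 107 and 109 CPM, below them (−0.53 ± 0.08, adjusted p = 0.0049). Cdkn1c was at 75.7 to 86 CPM against 56.6 to 74.1 CPM, which do not overlap, but was not called (0.38, adjusted p = 0.019). Neither call is firm: without SPONT library 2 the number called was 21 (15 higher, 6 lower), and without SPONT library 3 or 4 or any 1 of the IGF-1 libraries it was 0. The IGF-1, CNTF and 1% FBS comparisons share the SPONT libraries. With IGF-1, genes with exons under 2 kb had a median log2FC of 0.345 and those over 8 kb one of −0.307. Cdkn2b spans 1390 bases of exon, and the part of length was not tested.

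With rising serum, Ccnd2 and E2f1, and less firmly Ccnd1, went up from 1 to 20% FBS, while most genes of S phase and many of mitosis went down. From 1 to 20% FBS, the mean CPM fell at every dose in 12 of 13 S phase genes and in 15 of 22 G2/M genes, while it rose at every dose in 4 of 10 G1 genes, Cdk6, Ccnd1, Ccnd2 and E2f1, and in the inhibitors Cdkn1b and Cdkn2a. These are orders of group means without a test, and the share of all genes with such an order was not counted. Some steps were minute, as for Mcm6 at 77.56 CPM in 5% FBS and 77.46 CPM in 10% FBS. Ccnd3 and 7 G2/M genes, Cdk1 among them, followed neither order, and the mean of Ccnd1 was lower in 1% FBS (145 CPM) than in SPONT (174.5 CPM). Ccnd2 was at 44.3 to 58.1 CPM in 1% FBS, at 742, 400.1, 612 and 708 CPM in 5% FBS, at 982, 533, 971 and 1062 CPM in 10% FBS and at 1276, 1304, 1268 and 1037 CPM in 20% FBS. Over the same doses Mcm5 was at 54.2 to 65 CPM in 1% FBS, at 35.4, 42.9, 30.1 and 23.2 CPM in 5% FBS and at 19.5, 18.0, 21.8 and 16.6 CPM in 20% FBS. Ccnd2 thus approached its level in NPC P15 while Mcm5 fell under its level in SPONT. By FPKM, Ccnd2 made up 4.4% of the D cyclins in SPONT, 12.0% in 1% FBS, 53.2 ± 4.1% in 5% FBS and 62.0 ± 3.0% (SD, n = 4) in 20% FBS.

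Step by step, 1% FBS against SPONT gave 5 higher and 2 lower genes of 53 (8.78% of all genes called, 5.63% higher and 3.15% lower). Ccnd2 rose by 1.34 ± 0.15 (adjusted p = 0.00025), and Cdkn1c fell from 56.6 to 74.1 CPM to 23.8 to 28.1 CPM (log2FC −1.30 ± 0.11, adjusted p = 3.5e-05). Bub1b (0.79), Rb1 (0.78), Cdkn1a (0.67) and Cdc25b (−0.44) were called with all libraries but not in every fit with 1 library left out. Leaving out SPONT library 1 or 2 raised the count to 12 and 14, leaving out SPONT 3 or 4 lowered it to 2, and leaving out 1% FBS library 1, 2 or 3 lowered it to 3, 4 and 3.

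From 1 to 5% FBS, 3 genes were higher and 18 lower (31.1% of all genes called, 17.4% higher and 13.7% lower). The 3 that rose were Ccnd2 (3.54 ± 0.19, adjusted p = 1.1e-06), E2f1 (1.08 ± 0.14, adjusted p = 0.0002) and Ccnd1 (0.62, adjusted p = 0.0044), the last losing its call when some 1 library was left out. Of S phase genes 9 of 13 fell (median −0.50), among them Rrm2 (−1.04), Mcm5 (−0.88) and Mcm2 (−0.64), and of G2/M genes 5 of 22 (median −0.81). Cdkn1c fell again, to 8.71, 10.9, 8.51 and 7.39 CPM (log2FC −1.55 ± 0.12, adjusted p = 6.6e-06). The 5% FBS libraries were uneven in mitotic genes, with G2/M levels of 4.09 and 4.19 in libraries 1 and 2 and 3.45 and 3.18 in libraries 3 and 4. Without 5% FBS library 3 the number called was 10, without 1% FBS library 1 it was 10 and without 1% FBS library 2 it was 11. Mki67 at −0.92 (adjusted p = 0.033) was not called.

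From 5 to 20% FBS, 7 genes were higher and 16 lower (26.6% of all genes called, 12.9% higher and 13.7% lower). Mki67 fell to 5.27, 7.22, 9.42 and 7.88 CPM, below the 13.5 to 37.5 CPM of 5% FBS (log2FC −1.76 ± 0.32, adjusted p = 0.0015). Rrm2 (−1.15), Top2a (−1.05), Mcm5 (−0.83), Pcna (−0.64) and Mcm2 (−0.53) also fell, but the call of Top2a was lost in 6 of the 8 fits with 1 library left out (−1.12 to −0.87), that of Mcm5 without 20% FBS library 2 or 4 (−0.80 and −0.76) and that of Mcm2 without 20% FBS library 1 or 2 (−0.51 in both). In contrast, Cdk1 was at 28.5 to 34.8 CPM (0.20, adjusted p = 0.29). E2f1 rose to 21.3, 19.5, 20.7 and 12.8 CPM from 6.19 to 9.05 CPM (1.18 ± 0.17, adjusted p = 0.00036). The inhibitors Cdkn1c (0.93), Cdkn2b (0.84) and Cdkn1b (0.44) rose, and Ccnd2 by 0.95 and Ccnd3 by 0.60. Ccnd1 was not called with all libraries, but was without 20% FBS library 4 (0.61). Cdk6 rose by 2.00 but lay below 1 CPM in every library of both groups, and its call was lost when some 1 library was left out. Of the p53 targets 8 of 20 were higher, and of other S phase genes 18 of 39 were lower. Without 20% FBS library 1 or 2 the number called was 14 and 13, and with all groups in 1 fit it was 15. The 6 fibroblast markers summed to 22.5 to 124 CPM in 1% FBS and to 454 to 546 CPM in 20% FBS, and their part in these results was not tested.

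**Figure D4:**
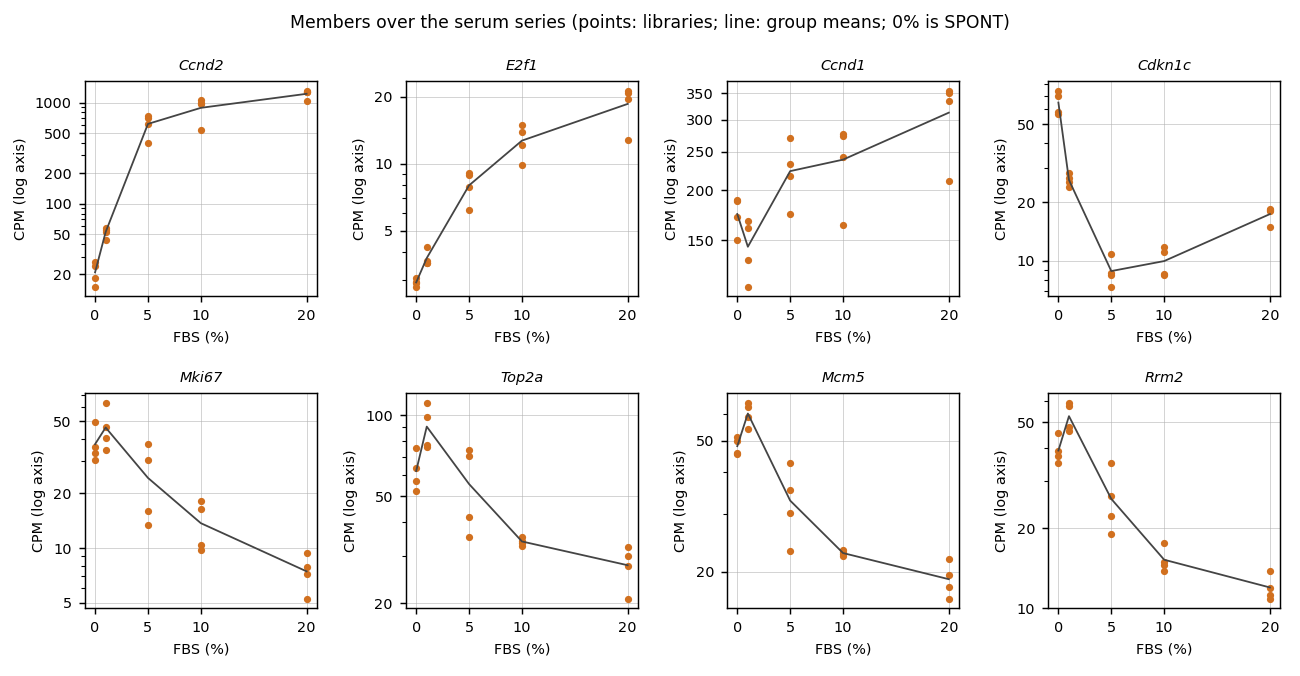
CPM (log axis) of 8 genes in SPONT (0%) and in 1, 5, 10 and 20% FBS (horizontal axis), with a point for each library (n = 4) and a line through the group means. Ccnd2 climbs from 21 CPM in SPONT to between 1037 and 1304 CPM at 20% FBS, while Mcm5, Mki67, Top2a and Rrm2 are highest at 1% FBS and lowest at 20% FBS.

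The difference made by CNTF was not the same in serum. Adding CNTF to 5% FBS left 3 genes higher and 2 lower of 53 (23.3% of all genes called, 11.3% higher and 12.0% lower). Rb1 (0.73), Cdkn2c (0.64) and Cdkn1b (0.40) rose and Cdkn1a (−0.89) and Cdkn1c (−0.55) fell, and without any 1 of the CNTF+5% FBS libraries 3 genes were called, with Rb1 and Cdkn1c among those lost in some of these fits. A fit of all groups together called 1. The difference between the CNTF effects with and without serum, tested as an interaction, was called in 35 of 53 genes, 34 of them lower with serum (22.9% of all genes called, 10.3% higher and 12.6% lower), and in 11 with all groups in 1 fit. These were 11 of 13 S phase genes and 16 of 22 G2/M genes. For Mki67 the libraries were at 10.4, 13.1, 11.0 and 11.0 CPM with CNTF in serum, under the 13.5 to 37.5 CPM of serum alone, where CNTF without serum had raised it (interaction −2.60 ± 0.35, adjusted p = 3.6e-05). For Ccnd2 the interaction was −2.10 ± 0.23 (adjusted p = 3.8e-06), with 455 to 488 CPM in CNTF+5% FBS, for Cdk1 −1.45 and for Mcm5 −1.10. Cdkn1b was the gene with the opposite sign, at 0.62.

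Passing NPC through a pipette in hydrogel in place of medium changed few of these genes. NPC DCH against NPC media gave 1 higher and 3 lower of 53 (4.32% of all genes called, 1.91% higher and 2.41% lower). Mki67 was at 99.4, 89.3, 137, 107 and 152 CPM in hydrogel and at 42.4, 66.4, 65, 81.8 and 86.5 CPM in medium, with no overlap (log2FC 0.78 ± 0.15, adjusted p = 0.0017). Cdkn1a (−0.33), Pcna (−0.30) and Rrm1 (−0.20) fell, the call of Rrm1 being lost when some 1 library was left out. None was called with all groups in 1 fit, and 10 were with the DESeq2 test. After 4 h in the hydrogel 1 gene was called (0.320% of all genes called, 0.0436% higher and 0.276% lower), and without NPC DCH 4 h library 5 there were 3. It was Cenpe, a kinetochore motor, at 47, 58.5, 37.8, 53.7 and 56.4 CPM against 86.9 to 126 CPM (−1.05 ± 0.12, adjusted p = 5.5e-06), and its call held with each library left out.

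The pipetted NPC in medium also differed from NPC P15, with 26 genes higher and 6 lower (26.2% of all genes called, 13.2% higher and 13.0% lower). The direction of many of these rested on the reference, and the derivation of the pipetted cells is not given. Against D3, 9 were higher and 11 lower, and against D2 15 and 23, and with all groups in 1 fit 5 were called against NPC P15. Cdkn1a was at 161 to 186 CPM in NPC media (−1.56 ± 0.05 against NPC P15, adjusted p = 1e-14). Of 20 p53 targets 16 were lower. Cdk1 stood at 0.47 against NPC P15 but at −0.62 against D3, Mcm5 at 0.28 and −0.07, Ccnd2 at −0.62 and 0.26, and Ccnd1 at −0.15 and 0.17.

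In grafts of 14 d nearly all genes of S phase and mitosis were far below their levels in NPC, with class levels of 3.96 and 2.84 in NPC SCI 14 d and 3.81 and 2.35 in NPC uninjured. The G2/M levels of the NPC SCI 14 d libraries (2.61 to 3.22) overlapped those of 20% FBS (2.89 to 3.26). Against NPC P15, 45 of 53 genes were lower and 2 higher in NPC uninjured (52.3% of all genes called, 28.9% higher and 23.4% lower), and 45 lower and 4 higher in NPC SCI 14 d (52% of all genes called, 29.5% higher and 22.5% lower). These comparisons share the NPC P15 libraries. All 22 G2/M genes fell in both, with medians of −4.48 and −3.50, and 12 and 13 of 13 S phase genes, with medians of −3.28 and −2.98, beside 0.20 and 0.23 over all genes. Ccnb1, which activates Cdk1, was at 79.4, 85, 88.8 and 82.6 CPM in NPC P15, at 0.0936, 2.12, 4.40, 1.76 and 0.564 CPM in NPC uninjured and at 3.43, 2.30, 2.74, 0.864 and 0.296 CPM in NPC SCI 14 d. All graft libraries lay far below all NPC libraries (log2FC −5.56 and −5.15), and the grafts overlapped each other. Markers of other cells were higher in grafts than in NPC P15, and their part in these falls was not tested. The 6 oligodendrocyte lineage markers summed to 10952 to 24349 CPM in NPC uninjured, 3935 to 9477 CPM in NPC SCI 14 d and 262 to 314 CPM in NPC P15, and the neuron markers to 888 to 3940, 354 to 615 and 32.4 to 37.6 CPM. The astrocyte markers summed to 11603 to 18570 CPM in NPC uninjured and 10941 to 23261 CPM in NPC SCI 14 d, and the fibroblast markers to 1693 to 4404 and 1045 to 3871 CPM, all above NPC P15 (812 to 848 and 23.9 to 33.5 CPM). Mki67 fell by 4.15 in uninjured cord and 2.55 in NPC SCI 14 d, Ccnd2 by 4.14 and 3.59 and Ccnd1 by 2.84 and 2.87, and Cdk4 kept more of its level (−1.93 and −1.01).

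Grafts 5 days old, compared with D2 of the same read type, gave 45 lower and 5 higher of 52 genes tested (69.3% of all genes called, 35.6% higher and 33.8% lower), and 50 were called without each graft library in turn (D2 libraries were not left out). All S phase and G2/M genes fell (medians −3.48 and −3.93 beside 0.04). The inhibitors were divided: Cdkn1a (−0.94) and Cdkn2c (−0.56) fell, while Cdkn1c (3.94 ± 0.67), Cdkn2b and Cdkn2a rose. Cdkn2b was at 53.8, 59.1, 76.5, 19.8 and 37.1 CPM against 4.72 to 6.58 CPM in D2 (log2FC 3.15 ± 0.26, adjusted p = 1.9e-07). Cdkn2a, whose counts join p16Ink4a and p19Arf, was at 30.0 to 154 CPM (median 89.7) against 14.2 to 17.5 CPM (2.47 ± 0.31, adjusted p = 1e-05). Library 4, with the 16631 myeloid CPM, was the lowest for Cdkn2b and Cdkn2a and the highest for Cdkn1c, at 67.9 CPM where the others were at 7.24, 8.90, 4.88 and 31.7 CPM, and the part of other cell types was not tested. Short genes were generally higher in these grafts (median 0.75 under 2 kb, −0.52 over 8 kb). Cdkn2b and Cdkn2a span 1390 and 1172 bases of exon, and the part of length was not tested.

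An INK4 inhibitor also stood apart between grafts in injured and uninjured cord. There 1 of 52 genes tested was called (4.64% of all genes called, 2.09% higher and 2.55% lower), Cdkn2b. It was at 28.4, 27.5, 24.1, 34.1 and 21.6 CPM in NPC SCI 14 d and at 3.12, 4.97, 5.90, 7.64 and 2.99 CPM in NPC uninjured, every injured library above every uninjured one (log2FC 2.75 ± 0.30, adjusted p = 0.00018). The call held with each library left out, and without NPC SCI 14 d library 5 there were 2 calls. With all groups in 1 fit 23 genes were called and with the DESeq2 test 8. In counts simulated for this comparison, the test called 4.55% of 2-fold and 60% of 4-fold changes, so a gene not called may still differ. The oligodendrocyte lineage and neuron markers, lower in NPC SCI 14 d than in NPC uninjured without overlap, moved with this difference, and their part was not tested. Cdkn2a was at 13.0, 17.4, 23.8, 50.6 and 9.23 CPM against 0.0234, 5.71, 7.13, 4.86 and 1.41 CPM, which do not overlap, but was not called (2.88, adjusted p = 0.035). Between these grafts, genes with exons under 2 kb had a median log2FC of 0.44 and those over 8 kb one of −0.26. Cdkn2b and Cdkn2a are short, with 1390 and 1172 bases of exon, and the part of length was not tested. In both kinds of graft Cdkn1c rose against NPC P15 (3.04 and 2.14), and Rb1 rose too (0.70, a call lost when some 1 library was left out, and 1.44). Cdkn1a fell in both (−2.16 and −1.45), a direction that turned to 0.45 in NPC SCI 14 d with NPC DCH as reference.

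**Figure D5:**
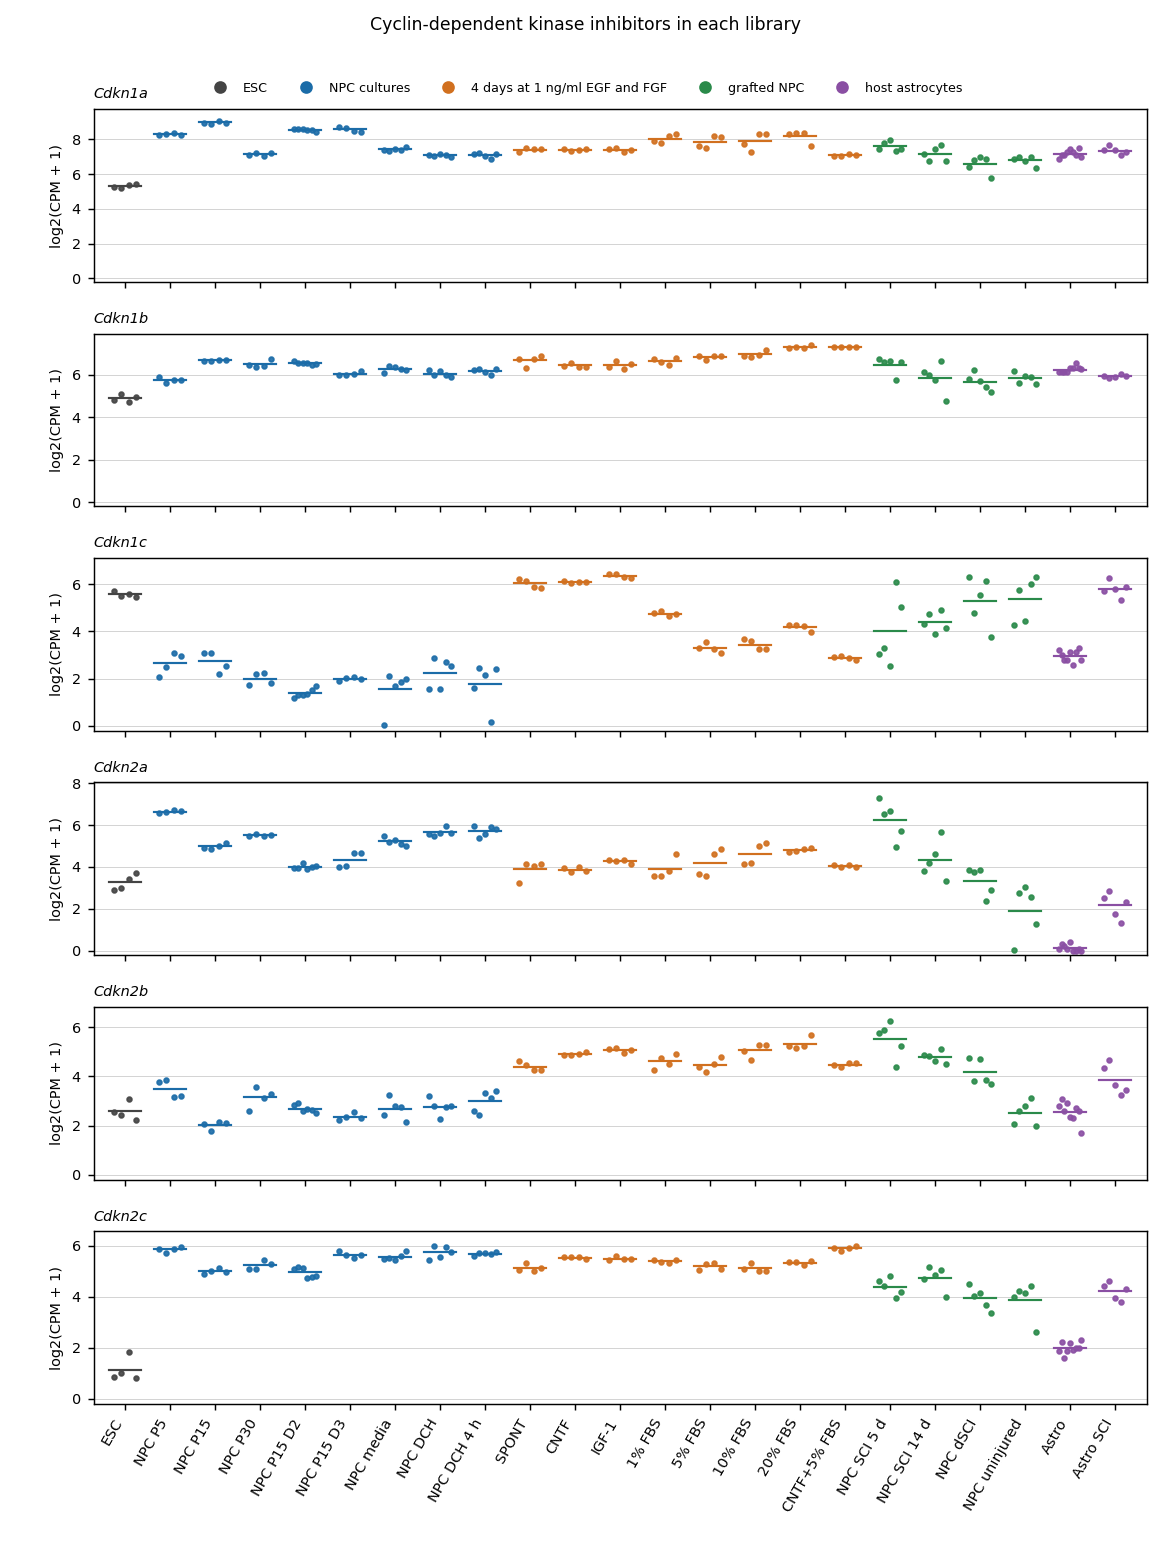
Levels of the 6 inhibitors (log2(CPM + 1), vertical axis) in each library (points) with the group mean (bar), by group. Cdkn2b is higher in every NPC SCI 14 d library (21.6 to 34.1 CPM) than in any NPC uninjured library (2.99 to 7.64 CPM), and Cdkn1c is high in ESC, SPONT and Astro SCI and low in NPC P15 and Astro.

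Few genes passed the test between graft times or between crush types, and Ccnd1 was among them in both. Between NPC SCI 14 d and NPC SCI 5 d, 1 gene was higher and 3 lower (5.30% of all genes called, 2.72% higher and 2.58% lower), but the read type differs between the groups and cannot be told apart from time. Ccnd1 was at 390.2, 281, 300.2, 268 and 230.3 CPM at 14 d and at 92.1 to 160 CPM at 5 d (1.36 ± 0.18, adjusted p = 0.00077), and Cdk1 (−1.14), Ccne1 (−1.71) and Bub1b (−1.46) were lower. Without NPC SCI 14 d library 1, 2 or 3 the number called was 1, 1 and 2, and without NPC SCI 5 d library 2 or 3 it was 1 and 2, with Cdk1, Ccne1 and Bub1b each lost in some of these fits. In a fit of all groups it was 22 and with the DESeq2 test 12. In NPC dSCI against NPC SCI 14 d, which serves in these comparisons as a common group, 1 gene was called (1.83% of all genes called, 1.29% higher and 0.538% lower). This was Ccnd1, lower at 98.3 to 186 CPM, below each NPC SCI 14 d library (−1.18 ± 0.20, adjusted p = 0.0056). The count was 0 without NPC dSCI library 2, 3 or 4 or NPC SCI 14 d library 1, 2, 3 or 4, and 2 without NPC SCI 14 d library 5, and it was 16 with all groups in 1 fit and 4 with the DESeq2 test. The fibroblast markers summed to 7211 to 27569 CPM in NPC dSCI and 1045 to 3871 CPM in NPC SCI 14 d. With some overlap, the myeloid markers summed to 1111 to 11707 and 572 to 1921 CPM in these groups, and the astrocyte markers to 6910 to 13755 and 10941 to 23261 CPM. The part of these cell types was not tested.

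In host astrocytes, genes of mitosis and most inhibitors were higher after the crush. In Astro SCI against Astro, 39 of 53 genes were higher and 1 lower (41.1% of all genes called, 22.2% higher and 18.8% lower). The G2/M genes were higher in 21 of 22 cases (median 2.96), S phase genes in 9 of 13 (0.76) and inhibitors in 4 of 6 (1.87), beside a median of 0.02 over all genes. Cdk1 was at 0.267 to 1.39 CPM (median 0.48) in the 9 Astro libraries and at 10.6, 13.6, 10.2, 7.47 and 8.66 CPM in Astro SCI, with a wide gap between the groups (log2FC 3.66). Mki67 was at 0.473 to 1.93 CPM (median 0.72) and at 7.95, 13.9, 8.35, 7.05 and 12.5 CPM (3.26). Ccnb2 rose by 3.94, Aurkb by 4.00, Top2a by 3.12 and Ccnb1 by 3.08. These levels remained small, and the G2/M class level of 2.47 in Astro SCI was under that of SPONT, 4.03. Of genes outside the 53 with CHR and CCAAT in their promoter, 20.9% were higher, no more than the 22% of all with a window.

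In G1, Ccnd1 went from 36.2 to 57.8 CPM (median 44.9) to 353, 362, 307, 268 and 254 CPM (log2FC 2.59 ± 0.11, adjusted p = 1.6e-11), which moved its share of D cyclin FPKM from 27.7% to 63.5%. Ccnd2 at 0.33 (adjusted p = 0.013) was not called. E2f1 rose by 1.44, Mcm5 by 1.49, Rrm2 by 1.11, Cdk4 by 0.85, Mcm2 by 0.80 and Pcna by 0.33, the last and Mcm2 losing their calls when 1 library was left out. Cdkn1c, at 5.02 to 8.72 CPM (median 6.90) in Astro, rose to 52, 76.2, 54.5, 39.7 and 57.9 CPM (2.84 ± 0.15, adjusted p = 2.1e-10), and made up 5.6% and 31.4% of Cip/Kip FPKM. Cdkn2a rose from at most 0.334 CPM, with no read in 3 of 9 libraries, to 4.74, 6.18, 2.44, 1.53 and 4.11 CPM (5.03 ± 0.71, adjusted p = 1.2e-05). Cdkn2c (2.39) and Cdkn2b (1.35) rose as well, Cdkn1b (−0.50) was the gene that fell, and Cdkn1a (−0.01, adjusted p = 0.97) was not called. Of 39 other G2/M genes 28 were higher and of 20 p53 targets 11. The 10 myeloid markers all rose in this comparison (median 4.28), to 310 to 2340 CPM with library 2 the highest, and that library was also the highest for Cdk1, Mki67, Cdkn1c and Cdkn2a. The 6 oligodendrocyte lineage markers summed to 4838 to 10438 CPM in Astro and 19893 to 33985 CPM in Astro SCI, and the fibroblast markers to 149 to 253 CPM and 614 to 1410 CPM, without overlap. The part of RNA of these cells in the rises was not tested.

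Few of the genes passed the test between the grafts of NPC SCI 14 d and Astro SCI, the host astrocytes of the same injury. Of 53, 4 were higher and 2 lower (14.6% of all genes called, 6.79% higher and 7.84% lower). Cdkn2a (2.53, adjusted p = 0.0024), Cenpf (1.28), Cenpe (1.25) and Top2a (0.93) were higher, and Cdkn1c (−1.50, adjusted p = 0.00059) and Ccnd2 (−0.83, adjusted p = 0.0038) lower. Genes with exons under 2 kb had a median log2FC of −0.24 here and those over 8 kb one of 0.35. Cenpf, Cenpe and Top2a span 15433, 8620 and 9013 bases of exon. Cdkn2a spans 1172 and the lower Ccnd2 9409. The oligodendrocyte lineage markers summed to 3935 to 9477 CPM in NPC SCI 14 d and 19893 to 33985 CPM in Astro SCI. The part of length and of these cells was not tested. Without NPC SCI 14 d library 3, Astro SCI library 1 or Astro SCI library 3, 3 genes were called, with Ccnd2, Cenpe and Top2a each lost in some fit with 1 library left out. The number was 18 with all groups in 1 fit and 11 with the DESeq2 test. Grafted cells were placed 2 days after the crush, so for them injured against uninjured cord is a difference of host cord. This difference, tested as NPC SCI 14 d minus NPC uninjured against Astro SCI minus Astro, was not that of host astrocytes in 13 genes, 12 of them lower in the grafts (16.8% of all genes called, 6.11% higher and 10.7% lower). They include Cdkn1c (−3.81 ± 0.41, adjusted p = 1.4e-07), Ccnb2 (−3.16), Ccnd1 (−2.69 ± 0.28, adjusted p = 6e-08), Ccne1 (−2.56), Cdk1 (−2.49), Top2a (−1.88) and E2f1 (−1.38), and Rb1 at 0.93 was the gene with the opposite sign. Of the 10 myeloid markers 9 were lower in the same term, whose part was not tested, and without Astro SCI library 2 the number called was 7. With all groups in 1 fit it was 34 and with the DESeq2 test 20, and Cdk1, E2f1 and Rb1 each lost their call in some fit with 1 library left out. Counting was not stranded, so reads of Cdk4, Ccnd3 and Rb1 where they overlap Tspan31, Bysl and Rcbtb2 cannot be assigned. The same holds for other members that overlap a gene, Ccnd1, Ccnd2, Cdkn1c and Cdc20 among them.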

How the data were processed

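RNA was pulled down with HA-tagged ribosomes and sequenced in 107 libraries, whose 23 groups were taken from the labels. The deposited values are unnormalized read counts for each gene, which the authors made in Galaxy. Reads were trimmed with Trimmomatic, aligned with HISAT2 to mm10 and counted with featureCounts at default settings, per the paper and the submitters' processing notes, so strand was not used. Headers name 1 read file for 11 libraries and 2 for 96, and even numbers among low counts (53.1–73.8% against 43.1–48.5%) show that both mates were counted in the latter, so counting errors of paired libraries are understated. The libraries of each comparison were fitted alone with edgeR 4.0.16 in R 4.3.3 (TMM, filterByExpr, glmQLFit and glmQLFTest), with Benjamini-Hochberg adjustment over all genes tested, and a call needed an adjusted p below 0.01. The standard error is the log2FC over the square root of F. Genes named are a fixed set of regulators and up to 3 of the largest called changes in each direction. The 53 genes and all lists were chosen with earlier results of these data known. The fit was tested on counts simulated with known changes for 2 comparisons. For SPONT vs NPC P15 it called 16.7% of 1.5-fold, 48.4% of 2-fold and 81.5% of 4-fold changes. For NPC SCI 14 d vs NPC uninjured it called 0%, 4.55% and 60% of them. Replicate numbers did not pair libraries (not every pair correlated above 0.1 in any comparison), so no block was used. Alternatives were DESeq2 1.42.0 size factors or its test, no filter, all groups in 1 fit, the block, a threshold of 0.05, other reference groups and each library of groups of up to 5 left out in turn (NPC P15 D2 and Astro libraries were not left out). Tables were handled with Python 3.11.15, pandas 2.3.3 and numpy 2.4.6. FPKM are CPM per kilobase of union exons. No columns of other samples were used.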

Additional observations from a re-analysis of the deposited data

Results flagged for a closer look

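Values that stand away from the rest of their group were looked for in each class level (mean log2(CPM + 1) over the class) in groups of 4 to 10 libraries by Dixon's test, and 6 of 115 were found, where chance flags about 1 in 20. The S phase level of 20% FBS library 3 was 4.473 against 4.337 to 4.35 in the others, and the G1 level of ESC library 4 was 6.21 against 6.311 to 6.326. The pocket protein level of Astro library 4 was 3.143 against 3.666 to 4.053. The inhibitor level was 4.749 in NPC P30 library 1 against 4.958 to 4.999, 5.803 in 1% FBS library 4 against 5.45 to 5.492, and 5.413 in NPC SCI 5 d library 4 against 5.709 to 5.82. The last is the library with the highest sum of myeloid markers.

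The effect of CNTF differed between 5% FBS and medium without serum in 35 of the 53 genes, as tested by the interaction term. On the log2 scale, the difference was −0.58 for Mcm2, −1.10 for Mcm5, −0.60 for Pcna and −0.78 for Rrm2 among S phase genes, and −2.60 for Mki67, −1.14 for Top2a and −1.45 for Cdk1 among G2/M genes. In G1 it was −0.95 for Ccnd1, −2.10 for Ccnd2, −0.30 for Ccnd3 and −1.25 for E2f1. Among inhibitors it was −0.92 for Cdkn1a, −0.63 for Cdkn1c and −0.64 for Cdkn2b, and 0.62 for Cdkn1b.

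The difference between injured and uninjured cord was not the same in grafted NPC and host astrocytes for 13 of the 53 genes. It was lower in grafts by the interaction term for Top2a (−1.88), Cdk1 (−2.49), Ccne1 (−2.56), Ccnd1 (−2.69), E2f1 (−1.38), Cdkn1c (−3.81) and Cdkn2c (−1.30), and higher for Rb1 (0.93).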

How the results depend on the processing

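With DESeq2's size factors in edgeR or with no filter on low counts, every number of the 53 genes called stayed within 1.5 times that of the fit reported. With all groups in 1 fit the numbers called were 7 for NPC P30 vs NPC P5, 15 for D3 vs NPC P15, 24 for CNTF, 0 for IGF-1, 3 for 1% FBS, 15 for 20 vs 5% FBS, 1 for CNTF+5% FBS, 5 for NPC media, 0 for NPC DCH, 22 for NPC SCI 14 d vs 5 d, 23 vs uninjured, 16 for dSCI, 18 for NPC SCI 14 d vs Astro SCI, 11 for the CNTF by serum term and 34 for the injury by origin term. With the DESeq2 test they were 12 for IGF-1, 18 for 1% FBS, 34 for 5 vs 1% FBS, 8 for CNTF+5% FBS, 10 for NPC DCH, 6 for NPC DCH 4 h, 12 for NPC SCI 14 d vs 5 d, 8 vs uninjured, 4 for dSCI, 11 vs Astro SCI and 20 for the injury by origin term. At an adjusted p below 0.05 they were 15, 20, 40, 10, 10, 4, 13, 10, 5, 12 and 23 in that order, and 38 for 20 vs 5% FBS. With the replicate number as a block, which the data do not show to pair the libraries, they were 0 for IGF-1, 36 for 5 vs 1% FBS, 2 for NPC DCH 4 h, 1 for NPC SCI 14 d vs 5 d, 2 vs uninjured, 0 for dSCI and 1 vs Astro SCI. With D3 in place of NPC P15 as the reference, NPC media gave 20. The causes were not tested.

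Leaving out 1 library at a time, in groups of up to 5 libraries, gave 48 to 51 calls for NPC P15 vs ESC, 30 to 32 for P30 vs P5, 29 to 32 for D3, 50 to 51 for SPONT, 36 to 41 for CNTF, 0 to 21 for IGF-1, 2 to 14 for 1% FBS, 10 to 31 for 5 vs 1% FBS, 13 to 33 for 20 vs 5% FBS, 3 to 7 for CNTF+5% FBS, 29 to 35 for NPC media, 3 to 5 for NPC DCH, 1 to 3 for NPC DCH 4 h, 43 to 49 for NPC uninjured, 48 to 49 for NPC SCI 14 d vs P15, 50 for NPC SCI 5 d, 1 to 5 for NPC SCI 14 d vs 5 d, 1 to 2 vs uninjured, 0 to 2 for dSCI, 38 to 41 for Astro SCI, 3 to 5 for NPC SCI 14 d vs Astro SCI, 27 to 38 for the CNTF by serum term and 7 to 15 for the injury by origin term. Among genes named for these comparisons, calls lost without some 1 library were Mki67 (NPC P15 vs ESC), Ccne1 and E2f1 (P30 vs P5), Cdkn1c and Cdkn2a (D3), Ccnd3 (SPONT and NPC SCI 14 d vs P15), Cdkn2b, Cdkn2c and Rb1 (CNTF), Cdkn2b and Ccnd1 (IGF-1), Bub1b, Cdc25b, Cdkn1a and Rb1 (1% FBS), Ccnd1, Ccne1 and Rbl1 (5 vs 1% FBS), Cdc25c, Cdk6, Kif11, Mcm2, Mcm5, Rb1 and Top2a (20 vs 5% FBS), Cdkn1c and Rb1 (CNTF+5% FBS), Rrm1 (NPC DCH), Rb1 (NPC uninjured), Bub1b, Ccne1 and Cdk1 (NPC SCI 14 d vs 5 d), Ccnd1 (dSCI), Mcm2 and Pcna (Astro SCI), Ccnd2, Cenpe and Top2a (NPC SCI 14 d vs Astro SCI), Ccnd3, Cdkn1c, Cdkn2b and Rrm2 (CNTF by serum) and Cdk1, Cdkn2c, E2f1 and Rb1 (injury by origin). Changes of direction came only from another reference group. NPC P15 vs ESC turned for Cdk4 with P5 (0.30) and D3 (0.45), Top2a with D2 (0.21), and Cdk1 (0.11) and Pcna (0.093) with D3. SPONT turned for Ccnd3 (−0.0033), Cdk4 (−0.31) and Cdkn2c (−0.60) with P5, Cdkn1a (0.43) with P30, and Cdk4 (−0.52) and Cdkn2c (−0.46) with D3. NPC media turned with D3 for Ccnb1 (−0.15), Ccnb2 (−0.39), Ccnd1 (0.17), Ccnd2 (0.26), Ccne1 (−0.83), Cdk1 (−0.62), Cdk4 (−0.64), Cdkn1b (0.16), Cdkn2c (−0.15), Mcm2 (0.27), Mcm5 (−0.0697), Pcna (−0.29) and Rrm2 (−0.68), and with D2 for Ccnd1 (0.12), Cdk1 (−0.38), Mcm5 (−0.21), Rrm2 (−0.50) and Top2a (−0.84). NPC SCI 14 d turned for Cdkn2c with D3 (−0.70) and NPC DCH (−0.67) and for Cdkn1a with NPC DCH (0.45).

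In grafts many members rest on few reads, the block and the single fit of all groups shift the median of all genes by over 0.1 (NPC uninjured 0.00 and 0.43, against 0.20 as reported), and depth and read type limit comparisons with the single-read libraries. Cdk6 was too low to be tested in 4 comparisons.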
